A study of Mus musculus with 8 samples.

Results

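The replication-dependent histone genes were examined in ATAC-seq data of bone marrow-derived macrophages (BMDMs). ATAC-seq marks open chromatin through a transposase that inserts sequencing adapters into accessible DNA, and each sequenced insertion end is counted as a tag. Members were the peaks whose centre lay within 2000 bp of the transcription start site (TSS) that the authors' table assigned to them, and whose assigned gene had a name beginning with Hist1h, Hist2h, Hist3h or Hist4h. This rule found 3 of 9698 peaks in the table of WT BMDMs and 30 of 24867 peaks in the table of NCoR f/f BMDMs.

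The WT table held 6 libraries from C57BL/6 mice, 2 each of vehicle (Veh), of 6 h of KLA, and of RGFP966 with KLA. KLA (Kdo2-lipid A) is the lipid core of endotoxin and an agonist of the receptor TLR4, and RGFP966 is an inhibitor of the deacetylase HDAC3. By the paper's methods, BMDMs were starved of serum before KLA, in a medium listed without macrophage colony-stimulating factor. RGFP966 was added when the starvation began, ahead of KLA. The NCoR f/f table held 2 Veh libraries of BMDMs, also named C57BL/6 in the labels, with loxP-flanked Ncor1 alleles and no Cre, labelled NWT, which express the corepressor NCoR. Its peaks were merged from 4 conditions, Veh and KLA in NWT and in NKO BMDMs, whose Ncor1 is deleted by a Cre under the myeloid lysozyme M promoter. Tags of the NWT KLA and NKO libraries were not analysed here. For the third WT pair the titles name RGFP966, whereas the treatment entry names KLA alone, and the pair is written as RGFP966 + KLA. Whether paired libraries are different mice, different cultures or repeats of 1 preparation is not given in the sources used here, so p-values measure a spread that may be technical.

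Replication-dependent histone genes encode the bulk of the H2A, H2B, H3 and H4 proteins of the nucleosome core and the linker histone H1, which binds the DNA that enters and leaves it. They are short genes without introns, packed in clusters, and are transcribed in S phase with the coactivator NPAT. Their mRNAs end in a stem-loop bound by SLBP in place of a poly(A) tail. BMDMs divide while they are grown with macrophage colony-stimulating factor, and endotoxin is known to stop this growth.

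The libraries were shallow at these loci. The WT libraries held 116733 to 202523 tags in peaks and the NWT libraries 372367 and 509741, which was 1.40% to 2.73% of all tags of a library, so that a single histone peak held between 2 and 32 tags per library. Marker genes were counted when assigned a peak at any distance. Of the 9 macrophage marker genes, 9 had such a peak in the NCoR f/f table and 4 in the WT table, among them Csf1r. No peak was listed for any of the 5 T cell or the 5 B cell markers in either table. Of the other markers, a peak was listed in the NCoR f/f and WT tables for 2 and 1 of 5 neutrophil, 1 and 0 of 4 erythroid, 1 and 1 of 4 fibroblast, and 2 and 0 of 4 osteoclast genes. The part of other cells in the histone signal was not tested. In bulk samples a smaller share of cells with an open site and a less open site in every cell cannot be told apart.

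The promoters of the 3 WT members are shown first because the tests below concern them, followed by an H1 and an H3 promoter, types without a WT peak. The H1 and H3 promoters belong to the highest NWT peak of each type within 150 bp of a TSS, and they were chosen after the values were seen. Sequences were read from mm10 with RefSeq start sites, 5′ to 3′ on the strand of the gene named first, and end at the base before its TSS. The Hist1h2ak and Hist1h2bk sequences span the whole gap to the TSS of a divergent partner, and the others the 250 bases upstream of the TSS. Capitals mark exact matches on either strand. The TATA box was searched as TATAAA, the CCAAT box by its own letters, which read ATTGG from the other strand, and the octamer as ATTTGCAT. The site of the H4 regulator HINFP was searched as GGTCCG, the AC box of H1 genes as AAACACA, and the GC box as GGGCGG. The sequences lie at chr13:21753913-21754075 on the minus strand (Hist1h2ak), chr13:22035644-22035820 on the plus strand (Hist1h2bk), chr13:23698459-23698708 on the minus strand (Hist1h4c), chr13:23622559-23622808 on the minus strand (Hist1h1e) and chr13:23535168-23535417 on the plus strand (Hist1h3g).
Hist1h2ak to Hist1h2bn: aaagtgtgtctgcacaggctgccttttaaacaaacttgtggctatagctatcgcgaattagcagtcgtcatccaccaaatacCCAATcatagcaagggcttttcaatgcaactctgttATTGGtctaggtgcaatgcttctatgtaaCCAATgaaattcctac
Hist1h2bk to Hist1h2ah: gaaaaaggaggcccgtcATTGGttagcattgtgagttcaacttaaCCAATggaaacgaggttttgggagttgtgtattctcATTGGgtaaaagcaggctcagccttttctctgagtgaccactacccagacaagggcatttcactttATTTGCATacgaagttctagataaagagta
Hist1h4c: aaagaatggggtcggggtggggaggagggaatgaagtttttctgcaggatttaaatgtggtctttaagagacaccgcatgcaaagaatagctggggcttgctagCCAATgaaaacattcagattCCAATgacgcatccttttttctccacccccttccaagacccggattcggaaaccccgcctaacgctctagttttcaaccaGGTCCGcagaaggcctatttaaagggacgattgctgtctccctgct
Hist1h1e: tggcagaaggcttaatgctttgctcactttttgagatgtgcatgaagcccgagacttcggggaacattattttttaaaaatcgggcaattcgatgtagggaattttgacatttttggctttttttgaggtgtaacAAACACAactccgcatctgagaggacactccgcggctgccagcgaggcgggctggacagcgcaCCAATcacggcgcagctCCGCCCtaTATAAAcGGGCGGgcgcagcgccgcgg
Hist1h3g: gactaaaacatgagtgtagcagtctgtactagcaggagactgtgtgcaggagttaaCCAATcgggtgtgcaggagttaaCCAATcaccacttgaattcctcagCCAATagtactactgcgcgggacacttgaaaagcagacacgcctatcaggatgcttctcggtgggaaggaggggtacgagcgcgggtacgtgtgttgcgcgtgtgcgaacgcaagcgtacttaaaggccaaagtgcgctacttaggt

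The first promoter, between an H2A and an H2B gene, held 3 CCAAT boxes in 163 bases. The Hist1h2bk promoter held 3 CCAAT boxes in 177 bases and an octamer that began 30 bases before the TSS. The H4 promoter held GGTCCG 46 bases before the TSS below a pair of CCAAT boxes. In Hist1h1e a TATA box began 27 bases and the AC box 115 bases before the TSS, with a CCAAT box and a GC box between them and a second GC box 20 bases before the TSS. Hist1h3g held 3 CCAAT boxes, 147 to 194 bases before the TSS, and no match to TATAAA.

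KLA was compared with Veh in WT BMDMs to ask where open chromatin changed on TLR4 activation. Accessibility fell at Hist1h2ak, an H2A gene, and the test was not passed at Hist1h2bk, an H2B gene, or at Hist1h4c, an H4 gene. All 3 peaks had been listed through the Veh set of reproducible peaks alone, so selection for a high Veh value and a fall from it cannot be told apart. They lay on chromosome 13, in the Hist1 cluster, in the window called a promoter by the authors, with centres 78, 61 and 26 bp upstream of the assigned TSS. No H1 or H3 gene was assigned a peak in this table.

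The Hist1h2ak peak (chr13:21753846-21754134, 289 bp) held 11 and 14 tags at Veh, 5 and 2 after KLA, and 7 and 9 with RGFP966 added. In CPM, tags scaled to a library of 1000000 tags in peaks, these were 85.3 and 116 at Veh, 26.7 and 17.1 after KLA, and 34.6 and 46.3 after RGFP966 + KLA. Both Veh libraries were above all 4 others, and both RGFP966 + KLA libraries were above both KLA libraries. The log2 change with KLA was -2.08 ± 0.52 (SE, 95% interval -3.12 to -1.04), from a mean of 100 to 21.9 CPM, with an adjusted p of 0.00951 in edgeR's quasi-likelihood test. In RGFP966 + KLA against Veh it was -1.29 ± 0.43 (-2.14 to -0.44), with a mean of 40.5 CPM and an adjusted p of 0.0423. Between RGFP966 + KLA and KLA the log2 difference was 0.79 ± 0.58, and its interval of -0.39 to 1.96 includes a loss and an almost 4-fold gain (edgeR adjusted p = 0.587).

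These calls rest on 25 Veh, 7 KLA and 16 RGFP966 + KLA tags. From counting alone the log2 difference would have an SE of 0.617 after KLA and 0.462 after RGFP966 + KLA, both larger than the fitted SEs of 0.517 and 0.425. The KLA call was lost in edgeR without Veh replicate 2 (log2 -1.85, adjusted p = 0.115), without KLA replicate 1 (-2.49, 0.0786) and without KLA replicate 2 (-1.87, 0.0547). The RGFP966 + KLA call was lost without Veh replicate 1 (-1.50, 0.0888), Veh replicate 2 (-1.07, 0.277), RGFP966 + KLA replicate 1 (-1.10, 0.226) or RGFP966 + KLA replicate 2 (-1.51, 0.110). DESeq2 with its own size factors called neither (adjusted p = 0.617 and 0.686). The fall kept its direction in every setting run. These settings reuse the same tags of a peak listed through the Veh set alone, so the direction is no separate support.

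The Hist1h2bk peak (chr13:22035651-22035870, 220 bp) held 11 and 10 tags at Veh, 13 and 5 after KLA, and 9 and 8 after RGFP966 + KLA. The CPM were 85.3 and 82.6, then 69.5 and 42.8, then 44.4 and 41.2. Both Veh libraries lay above the other 4, and the KLA and RGFP966 + KLA libraries overlapped. The log2 difference from Veh was -0.50 ± 0.44 after KLA and -0.96 ± 0.45 after RGFP966 + KLA, and that between the treatments was -0.46 ± 0.46 (edgeR adjusted p = 0.604, 0.168 and 0.707). For RGFP966 + KLA against Veh the 95% interval was -1.85 to -0.06 and the unadjusted p 0.0387, which did not pass the correction over all peaks.

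The Hist1h4c peak (chr13:23698384-23698585, 202 bp) held 10 and 11 tags at Veh, 10 and 10 after KLA, and 7 and 13 after RGFP966 + KLA. This was 77.6 and 90.8 CPM at Veh, 53.5 and 85.7 after KLA, and 34.6 and 66.9 after RGFP966 + KLA. The Veh and KLA libraries overlapped, whereas both RGFP966 + KLA libraries were below both Veh libraries. In the same order the log2 differences were -0.35 ± 0.44, -0.73 ± 0.45 and -0.38 ± 0.45, with intervals that include 0, for RGFP966 + KLA against Veh from -1.62 to 0.16 (edgeR adjusted p = 0.741, 0.310 and 0.750).

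**Figure D1:**
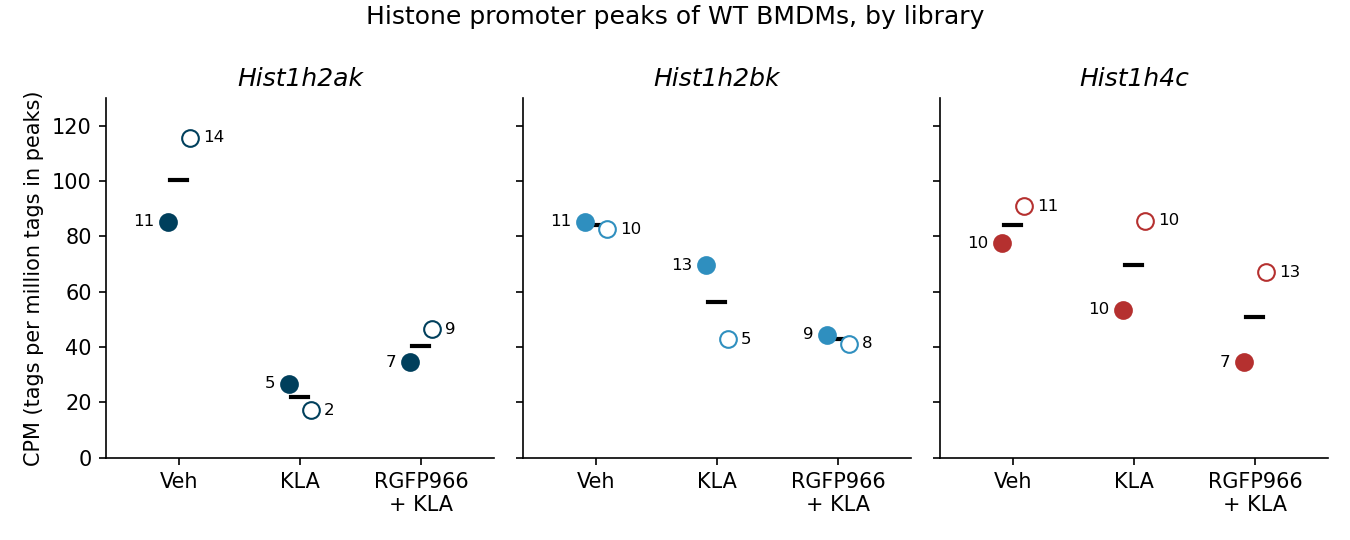
CPM (y axis) at the 3 histone promoter peaks in each WT library, by condition (x axis). Filled circles are replicate 1 and open circles replicate 2, numbers are raw tags and bars are the means, and at Hist1h2ak both Veh libraries (85.3 and 116) lie above the KLA libraries (26.7 and 17.1) and the RGFP966 + KLA libraries (34.6 and 46.3).

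In all, 1, 0 and 1 of the 3 members were called in KLA against Veh, RGFP966 + KLA against KLA, and RGFP966 + KLA against Veh, both calls being the fall at Hist1h2ak. Of all 9698 peaks, 5.03%, 0.34% and 9.88% were called in these comparisons, and 1.73%, 0.103% and 2.99% were called lower. An unadjusted p under 0.05 was reached by 1, 0 and 2 members and by 19.5%, 13.8% and 25.4% of all peaks. All 3 members came from the Veh set of reproducible peaks alone, as did 800 of the 9698 peaks (8.25%) and 376 of the 4913 promoter peaks. Among the 660 promoter peaks with a mean of 8 to 10.2 tags, the range of the members, 139 (21.1%) were in the Veh set alone. The median log2 difference of the 3 members, -0.50, -0.38 and -0.96, against 0.02, 0.03 and 0.04 over all peaks, is given as a description because of this selection.

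By their mean CPM over all 6 libraries, the members were among the weaker promoter peaks. Hist1h2ak, Hist1h2bk and Hist1h4c were higher than 7.86%, 13.9% and 21.5% of the WT promoter peaks, with a median of 61.0 CPM against 96.2. Per kilobase of peak width, these means were 188, 277 and 337 CPM against a promoter median of 334, so Hist1h4c was near that median. At Veh, whose set listed the members, their means were 100, 83.9 and 84.2 CPM, and no promoter median was taken at Veh alone. Together they held 0.0269% ± 0.00289 (SD, n = 2) of the tags in peaks at Veh, 0.0148% ± 0.000289 after KLA and 0.0134% ± 0.00289 after RGFP966 + KLA. The Veh libraries had shares of 0.0248% and 0.0289%, the KLA libraries 0.0150% and 0.0146%, and the RGFP966 + KLA libraries 0.0114% and 0.0154%. Both Veh shares were above all others, and 2 against 2 libraries cannot give an exact two-sided permutation p below 0.333. The members were listed through the Veh set alone, so selection and a higher Veh share cannot be told apart. The Wilson 95% intervals of single libraries, which cover counting error only, ran from 0.0176% to 0.0350% and 0.0208% to 0.0402% at Veh and overlapped those after KLA (0.0104% to 0.0216% and 0.00909% to 0.0233%).

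The NCoR f/f table, merged over 4 conditions, listed 30 histone peaks at 27 genes, with every histone type present. Of the 30, 25 were in the set of reproducible peaks of NWT Veh, and tags at all 30 were counted in the NWT Veh libraries. H1 had 5 peaks at 4 genes, H2A 8 at 8, H2B 7 at 6, H3 4 at 4 and H4 6 at 5, of which 25 lay on chromosome 13 and 5 in the Hist2 cluster on chromosome 3. The 30 peaks held 0.0994% and 0.104% of the tags in peaks of replicates 1 and 2, a mean of 0.102% ± 0.00354 (SD, n = 2). H2A peaks took 0.0260%, H4 peaks 0.0226%, H2B peaks 0.0218%, H1 peaks 0.0192% and H3 peaks 0.0123%. No test was made between the tables, which hold different peaks and, by the labels, libraries of different dates.

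Levels of the NWT members ran from 11.6 to 62.3 CPM. The peaks held 5 to 23 tags (median 12) in replicate 1 and 5 to 32 (median 17) in replicate 2, and 15 of 30 were higher in CPM in replicate 1. All 30 differed less than 2-fold between the replicates, as did 92.1% of promoter peaks. Their median level was 33.5 CPM against 40.4 for the 11828 promoter peaks, with 7 members above that median and 9 below the lower quartile. In CPM per kilobase, a density that allows for peak width, the median was 107 against 125, and 24 of 30 lay between the quartiles of promoter peaks, 93.1 and 173.

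The linker histone peaks spanned almost the whole range of the members. The peak at Hist1h1c (chr13:23739620-23739877), centred 941 bp downstream of the TSS and annotated at the transcription termination site, held 23 and 32 tags, or 61.8 and 62.8 CPM. At 241 CPM per kilobase it was the one member above the upper quartile of promoter peaks. A second Hist1h1c peak, 33 bp downstream of the TSS, held 17 and 15 tags with a mean of 37.5 CPM. The Hist1h1a peak (chr13:23763499-23763727) was lowest of the type with 6 tags in each library, 16.1 and 11.8 CPM. Hist1h1e, whose sequence is printed above, held 17 and 22 tags with a mean of 44.4 CPM, and its centre was 6 bp upstream of the TSS.

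Among the core histones, H2A was highest at Hist1h2ah (chr13:22035574-22035875) with 14 and 30 tags, 37.6 and 58.9 CPM. The peak assigned to Hist2h2aa2 (chr3:96245061-96245352) was lowest of the type and of all members, with 5 tags in each library, 13.4 and 9.81 CPM. By RefSeq its centre lay 291 bp from the TSS of Hist2h2aa1 and 4832 bp from that of Hist2h2aa2. Of the 30-base windows, 86.3% in this peak and 26.2% in the Hist2h2aa1 promoter occur once in the genome. The replicate values of the highest and lowest H2A peaks do not overlap. H2B was highest at Hist1h2bh (chr13:23543355-23543656) with 17 and 26 tags, 45.7 and 51.0 CPM, and lowest at Hist1h2be (chr13:23621106-23621372) with 7 and 9 tags, 18.8 and 17.7 CPM. The H2B extremes were likewise apart in both libraries. The extremes of each type were picked by their mean over these same libraries, so their separation is no test of a difference in level.

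H3 members had the narrowest range of CPM, but H3 also had the fewest peaks, 4, and fewer peaks tend to give a narrower range. Hist1h3g (chr13:23535135-23535417) held 10 and 22 tags, 26.9 and 43.2 CPM, and Hist2h3b (chr3:96268547-96268755) held 10 and 13 tags, 26.9 and 25.5 CPM. The highest and lowest H3 peaks thus did not differ in replicate 1. H4 was highest at Hist1h4a (chr13:23761135-23761606), with 19 and 31 tags, 51.0 and 60.8 CPM. It was lowest at Hist2h4 (chr3:96262272-96262553), with 9 and 10 tags, 24.2 and 19.6 CPM, at a site 905 bp downstream of the TSS. Type medians lay between 30.8 CPM (H3) and 37.5 (H1), and between 104 (H2B) and 124 (H3) CPM per kilobase, within the spread of single peaks.

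**Figure D2:**
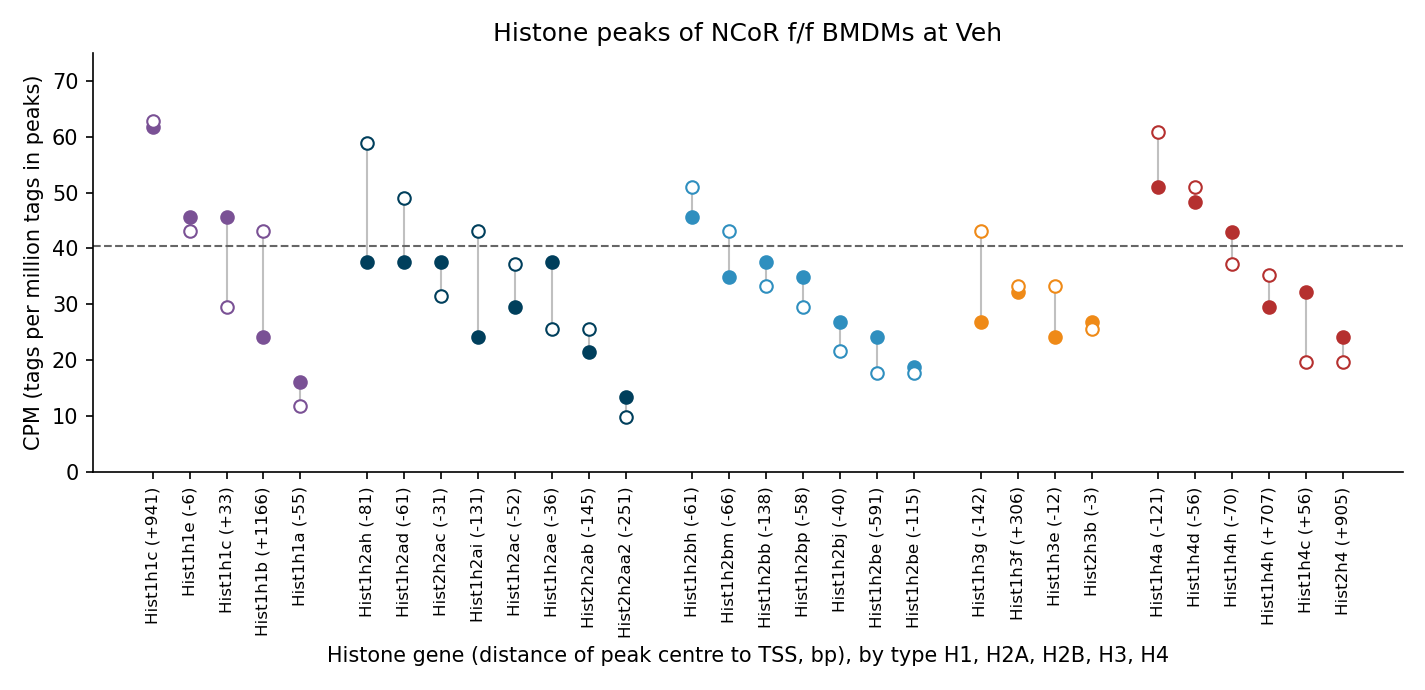
CPM (y axis) of the 30 histone peaks in the NWT Veh libraries, ordered by histone type and level (x axis, with the distance of the peak centre to the TSS in bp). Filled circles are replicate 1, open circles replicate 2, and the dashed line is the median of promoter peaks, 40.4, above which 7 of the 30 peaks lie by their mean.

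Most members lay at the start of their gene. Of the 30 NWT peaks, 23 were centred within 150 bp and 29 within 1000 bp of the assigned TSS, and 23 were on the upstream side. The authors' annotation placed 26 at a promoter and 4 at a transcription termination site, namely Hist1h1b (1166 bp downstream), Hist1h4h (707), Hist1h1c (941) and Hist2h4 (905). Histone genes are short, so their 3′ ends fall within the 2000 bp window, and over all promoter peaks 99 of 11828 (0.837%) carried this annotation. Hist1h4h and Hist1h1c had a peak at each end, and Hist1h2be had a pair of upstream peaks.

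**Figure D3:**
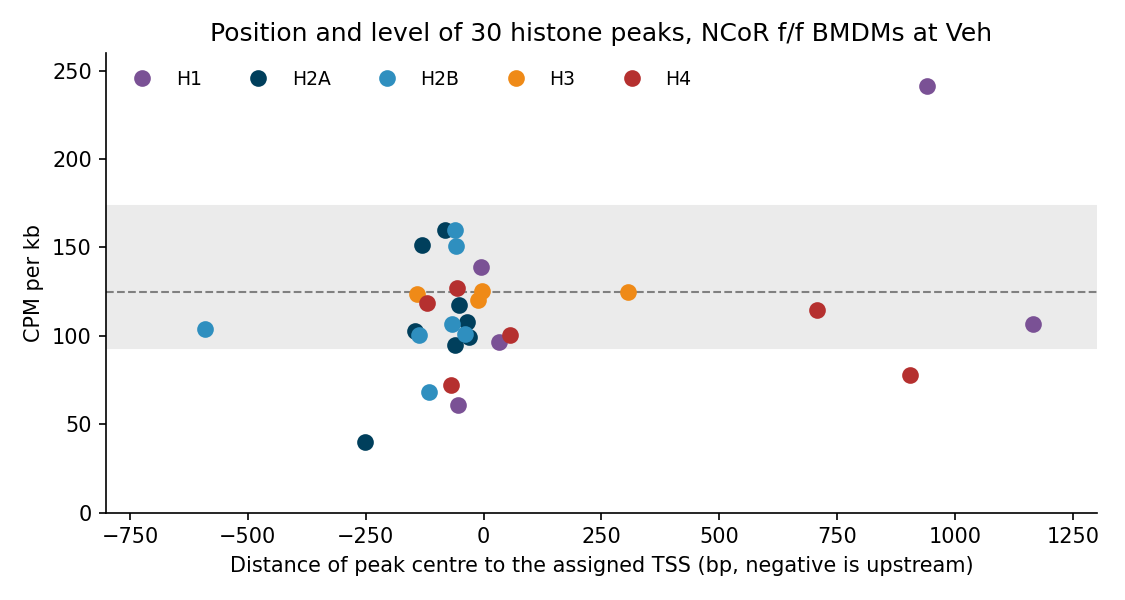
Distance of the peak centre to the assigned TSS in bp (x axis) and CPM per kilobase (y axis, mean of the NWT Veh libraries) for 30 histone peaks coloured by type. The dashed line and grey band are the median, 125, and quartiles of promoter peaks, and the Hist1h1c peak 941 bp downstream, at 241, lies above the band.

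The authors' annotation gives a peak 1 gene, so the RefSeq annotation was used to ask which histone genes had any peak centre within 2000 bp of a TSS. It holds 70 such genes, 67 protein-coding and 3 pseudogenes, with testis genes such as Hist1h1t and Hist1h2ba among them. Among them 44 of 70 (62.9%, Wilson 95% interval 51.1 to 73.2) had a peak in the NCoR f/f table, against 44.7% of all 21774 protein-coding genes. In WT BMDMs 5 of 70 (7.14%, 3.09 to 15.7) had one, against 23.2%. Neighbouring genes share peaks, so the genes are not independent of each other. Within 200 bp the counts were 31 of 70 (44.3%) against 37.7% in the NCoR f/f table, and 5 of 70 against 19.2% in the WT table.

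By type, the NCoR f/f table had a peak at 4 of 6 H1, 12 of 20 H2A, 13 of 19 H2B, 9 of 12 H3 and 6 of 13 H4 genes. Only 3 of the 12 H3 genes and 4 of the 13 H4 genes had one within 200 bp. The Hist1 cluster is in separate blocks on chromosome 13. From 21715711 to 22043658, 13 of 24 genes had a peak (54.2%), and from 23531044 to 23934913, 23 of 31 (74.2%), whereas the WT table covered 4 and 1. In Hist2 on chromosome 3, 8 of 10 genes had an NCoR f/f peak, and none of the 3 genes on chromosome 11 or the gene on chromosome 6 had one. In the first block, 6 neighbouring genes from Hist1h2bq to Hist1h2br (21806412 to 21837530) had no peak in either table.

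Histone genes are near copies of each other, and reads from identical copies cannot be placed. In the promoters of these 6 genes 0% to 5.54% of the 30-base windows occur once in the genome. Over all histone genes, 42 of 60 with at least 50% unique windows in the promoter had an NCoR f/f peak (70.0%), against 2 of 10 with fewer. Absence of a peak at a repeated promoter is therefore not evidence of closed chromatin. The member peaks themselves were mostly unique, with a median of 99.3% and a minimum of 72.5% unique windows in the NCoR f/f table and 99.4% or more in the WT table.

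**Figure D4:**
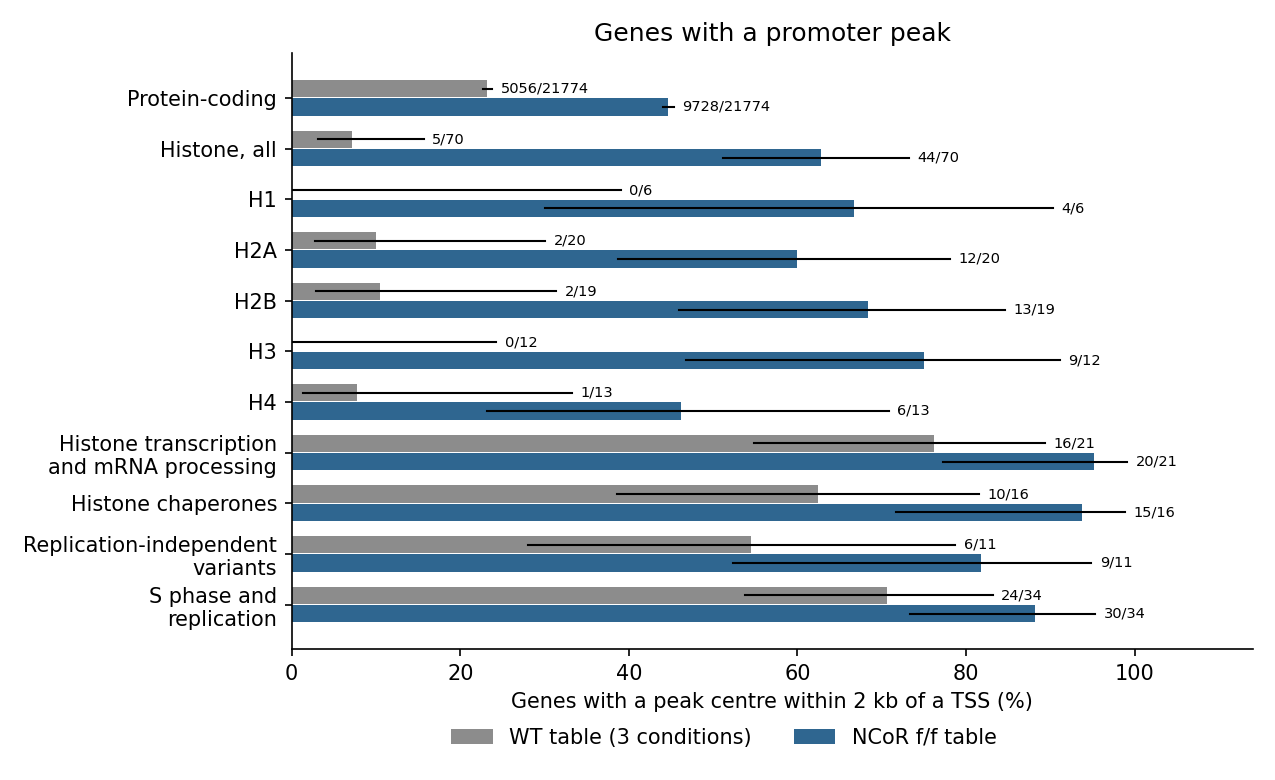
Percent of genes (x axis) with a peak centre within 2 kb of a RefSeq TSS in the WT (grey) and NCoR f/f (blue) tables, for all protein-coding genes, histone genes by type and related gene lists (y axis). Lines are Wilson 95% intervals and numbers are genes with a peak over all genes, and the histone genes stand at 5 of 70 in WT and 44 of 70 in NCoR f/f.

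Many H2A and H2B genes start back to back from a shared promoter. The annotation holds 15 such head-to-head pairs, 14 of an H2A with an H2B gene and 1 of an H2B with an H3 gene (Hist1h2bh and Hist1h3f), with 164 to 608 bp between the TSSs (median 229). In NCoR f/f BMDMs 10 of 15 pairs had a peak centre within 200 bp of a TSS of the pair, and a peak there cannot be divided between the genes of a pair. The WT Hist1h2bk peak overlapped the NCoR f/f peak assigned to its partner Hist1h2ah, and the Hist1h4c peaks of both tables overlapped. At the Hist1h2ak and Hist1h2bn pair, where the WT fall was called, the nearest NCoR f/f peak centre was 25383 bp from the nearer TSS.

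The deposited tables also name the sets of reproducible peaks that each merged peak came from, kept by the irreproducible discovery rate (IDR) in each condition. In the NCoR f/f table, 25 of 30 histone peaks (83.3%) were in the NWT Veh set, 18 (60.0%) in NWT KLA, 11 (36.7%) in NKO KLA and 2 (6.67%) in NKO Veh. For all promoter peaks these shares were 72.6%, 79.8%, 62.9% and 42.1%. The sets thus held the histone peaks most often at NWT Veh, and all promoter peaks most often at NWT KLA. Promoter peaks of like tag number, given below, were also most often in NWT Veh, so this order was not particular to histone peaks. The peak found in every set was Hist1h1e, 1 of 30 (3.33%) against 31.8% of promoter peaks, and the other peak in NKO Veh was Hist1h4c. In NWT Veh alone were 8 histone peaks, in NWT KLA alone 3 (Hist2h2ac, Hist2h2aa2 and the more upstream Hist1h2be peak), and in NKO KLA alone Hist1h1a.

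Promoter peaks with few tags were in most sets less often. Among the 3373 promoter peaks with a mean of 11.1 to 17.5 tags, the middle range of the members, 74.5% were in NWT Veh, 66.6% in NWT KLA, 45.6% in NKO KLA, 18.4% in NKO Veh and 6.91% in every set. Presence in a set is a threshold and not a level, each set comes from its own libraries, and no test was made.

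**Figure D5:**
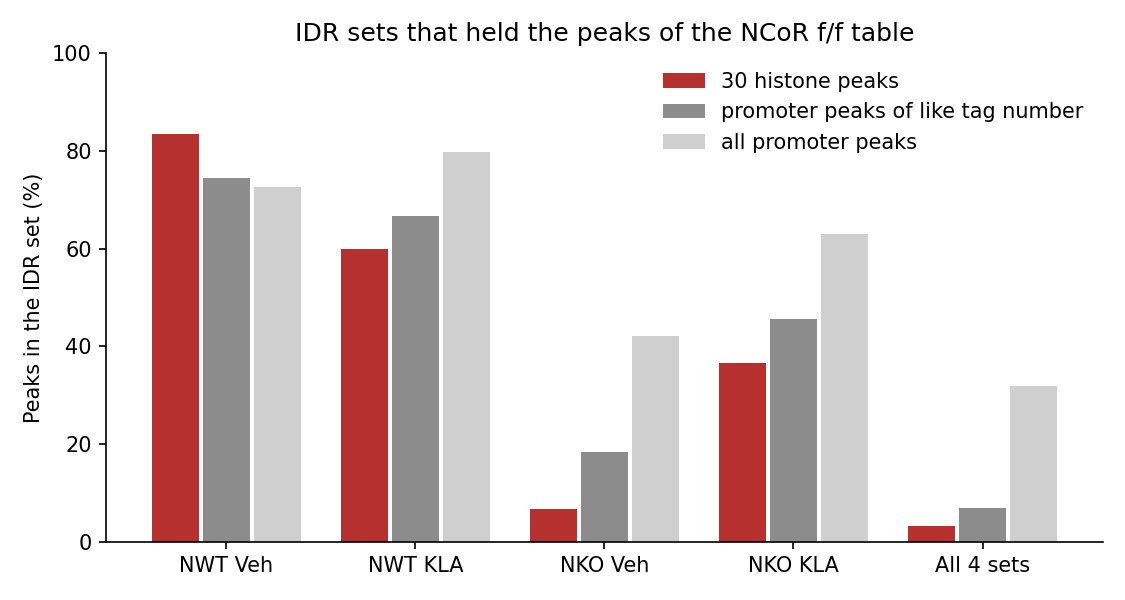
Percent of peaks (y axis) in each IDR set (x axis) for the 30 histone peaks (red), promoter peaks with a mean of 11.1 to 17.5 tags (dark grey) and all promoter peaks (light grey) of the NCoR f/f table. Histone peaks stand at 83.3% in NWT Veh and 6.67% in NKO Veh, against 72.6% and 42.1% of all promoter peaks. The promoter peaks of like tag number stand at 74.5% and 18.4%.

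Promoter elements followed histone type. In the 300 bases from 250 upstream to 50 downstream of the TSS, a CCAAT box was in 60 of 70 histone promoters (85.7%) and 37.9% of all 27025 RefSeq promoters. It was in every H1, H2A and H2B promoter, in 11 of 12 H3 promoters and in 4 of 13 H4 promoters. TATAAA was in 38 (54.3% against 14.2%), ATTTGCAT, bound by POU factors such as OCT1, in 17 (24.3% against 1.75%), and TTTNGCGC, an E2F-type site, in 15 (21.4% against 1.38%). The octamer was in 8 of 20 H2A and 9 of 19 H2B promoters, and the E2F-type site in 8 and 7, and neither matched an H1, H3 or H4 promoter. GGTCCG was in 12 of 13 H4 promoters and AAACACA in 5 of 6 H1 promoters, against 8.39% and 7.14% of all promoters. The GC box GGGCGG was at a like share, 34.3% against 35.9%, with 10 of 13 H4 promoters. Matches were counted on both strands as bare letters, no motif searched contains another, and a match is no evidence of binding.

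At the peak centres some elements stood differently from the promoters. In 200 bp at the centre of the 30 NCoR f/f peaks, CCAAT was in 25 (83.3% against 31.0% of 11820 promoter peaks with sequence), TATAAA in 9 (30.0% against 2.11%), and ATTTGCAT in 5 (16.7% against 1.03%). TTTNGCGC was in 5 as well, against 1.58% of promoter peaks. GGGCGG was in 11 (36.7% against 62.4%), GGTCCG in 3 (10.0% against 12.3%) and AAACACA in 1 (3.33% against 1.79%). By type, GGTCCG was in 2 of 6 H4 peaks and AAACACA in 0 of 5 H1 peaks, and TTTNGCGC was in 1 H1 and 1 H4 peak besides 2 H2A peaks and 1 H2B peak. Every peak was wider than the 200 bp window (201 to 555 bp), so motifs toward the edge of a peak were not counted. The AC box of Hist1h1e, for example, lies within its peak but outside the window. The H1 and H4 counts include the 4 peaks annotated at a transcription termination site. The histone peaks had a median GC content of 50.8% in the NCoR f/f table and 44.5% in the WT table, against 64.7% and 65.0% for promoter peaks.

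Promoter peaks were also listed at genes that act with the histone genes. Of 21 genes of histone transcription and mRNA processing, 20 had an NCoR f/f peak and 16 a WT peak. The counts were 15 and 10 of 16 histone chaperones, which carry histones to DNA, 9 and 6 of 11 replication-independent histone variants, and 30 and 24 of 34 genes of S phase and replication. At Npat the WT peak held 39 and 51 tags at Veh, 86 and 41 after KLA, and 93 and 77 after RGFP966 + KLA. In CPM this was 302 and 421, 460 and 351, and 459 and 396, so that the conditions overlapped (log2 0.20 ± 0.27 for KLA against Veh, edgeR adjusted p = 0.758). At Slbp there were 11 and 9, 15 and 8, and 10 and 21 tags, with a log2 difference of -0.08 ± 0.45 (edgeR adjusted p = 0.958).

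No peak of these 4 lists, of 17, 9, 6 and 21 tested, was called in KLA against Veh or in RGFP966 + KLA against KLA. Their median log2 differences with KLA were 0.03, -0.01, -0.17 and 0.03, beside 0.02 over all peaks. Between RGFP966 + KLA and KLA the medians were 0.05, -0.28, 0.01 and -0.13, and in RGFP966 + KLA against Veh -0.03, -0.19, -0.29 and -0.24, beside 0.03 and 0.04 over all peaks. In the last comparison, where 9.88% of all peaks were called, 1 of 17 peaks of the first list was called higher and 1 of 21 of the S phase list lower.

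The peak called higher was at E2f3, a transcription factor of the G1 to S transition, with 10 and 7 tags at Veh, 28 and 17 after KLA, and 39 and 31 after RGFP966 + KLA (log2 1.37 ± 0.36, edgeR adjusted p = 0.00864). It was listed through the KLA and RGFP966 + KLA sets and not the Veh set, so selection and a rise from Veh cannot be told apart. A second E2f3 promoter peak, higher at Veh with a mean of 255.7 CPM, had log2 differences of 0.04 for KLA and -0.01 for RGFP966 + KLA against Veh, and was not called. The peak called lower, listed through the Veh and KLA sets, was at Pola1, the catalytic subunit of DNA polymerase alpha, with 24 and 14, 21 and 12, and 18 and 7 tags (log2 -1.26 ± 0.38, edgeR adjusted p = 0.0227). With KLA alone E2f3 differed from Veh by 1.11 ± 0.39 (edgeR adjusted p = 0.0792). An unadjusted p under 0.05 without a call was reached in KLA against Veh by Zfp473 (log2 -1.26), a processing factor of histone pre-mRNA, Cenpa (-1.27), the centromeric H3 variant, and Ccne1 (-0.80), cyclin E1. Between RGFP966 + KLA and KLA it was reached by Zfp473 (1.18), Cenpa (0.84), the H3-H4 chaperone Asf1a (-0.69), and the helicase subunits Mcm5 (-1.47) and Mcm6 (-1.08). For RGFP966 + KLA against Veh the same held for Asf1a (-0.70), Anp32e (-0.79), a chaperone of H2A.Z, Mcm5 (-1.19) and the licensing factor Cdc6 (-0.90). Of these peaks, Mcm5 and Mcm6 were listed through the KLA set alone and Zfp473 through the RGFP966 + KLA set alone, and Cenpa, Ccne1 and Cdc6 were not in the KLA set. Where the set that listed a peak is the higher group of a comparison, selection and a difference cannot be told apart. Counts at an unadjusted edgeR p under 0.05, calls included, follow in the order of the lists (17, 9, 6 and 21 peaks). In KLA against Veh they were 2, 0, 1 and 1, beside 19.5% of all peaks. Between RGFP966 + KLA and KLA they were 1, 1, 1 and 2, beside 13.8%. In RGFP966 + KLA against Veh they were 1, 2, 0 and 3, beside 25.4%.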

How the data were processed

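Reads were mapped with Bowtie2 (mm10) and peaks were found with HOMER by the authors, who merged the IDR peaks of the conditions and deposited raw tag counts per peak and library, with at most 3 tags per position and no adjustment for depth. Tool versions are not given in the sources used here. Distances, assigned genes and IDR sets were taken from the deposited tables. Levels are CPM, tags scaled to 1000000 tags in peaks.

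The 6 WT libraries were fitted in 1 model with edgeR 4.0.16 (quasi-likelihood, R 4.3.3, limma 3.58.1) over all peaks that reached 4 tags in any library. Library sizes were total tags in peaks. Calls needed a Benjamini-Hochberg adjusted p under 0.05 over all peaks and over 2-fold change, and the SE is the log2 difference over the root of F. The script was first tested on simulated data. Coverage of genes, promoter sequence and unique 30-base windows used the mm10 genome with RefSeq. Shares carry Wilson 95% intervals, which cover counting error only. Python 3.11.15 with pandas 2.3.3 was used elsewhere.

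Values per library are given for called members, the highest and lowest member of each histone type, the member with the smallest p in each direction, and those with an unadjusted p under 0.05. Genes of the lists were named when called, at an unadjusted p under 0.05, or as Npat and Slbp. The members and lists were chosen with earlier results of these data known. Alternatives were TMM factors, all tags as library size, loess offsets, DESeq2 1.42.0, other filters, a fold change of 1.5, a distance of 1 kb, 4 libraries, a replicate block and each library left out.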

Additional observations from a re-analysis of the deposited data

How the results depend on the processing

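Depth was the main limit, with 2 to 14 tags per library at the WT histone peaks. The count of histone peaks called in KLA against Veh went from 1 to 0 with DESeq2 under either set of size factors and with a filter of 16 tags, which leaves out the members, and was 0 to 1 with a library left out. In RGFP966 + KLA against Veh it went from 1 to 0 with all tags as library size, with DESeq2 and with the 16-tag filter, and was again 0 to 1 with a library left out. In RGFP966 + KLA against KLA it was 0 in every setting. The fall at Hist1h2ak kept its direction throughout, with a log2 change from -2.49 to -1.85 after KLA and from -1.79 to -1.07 after RGFP966 + KLA. Because all settings reuse the same tags, the unchanged direction is no separate support for a fall. Adjusted p-values ranged from 0.00400 to 0.617 and from 0.00361 to 0.70, and 5 and 7 of 14 settings did not pass. With a library left out, the log2 difference of Hist1h4c in KLA against Veh ran from -0.64 to 0.028, positive without KLA replicate 1. In RGFP966 + KLA against KLA it ran from -0.91 to 0.021, positive without RGFP966 + KLA replicate 1, and that of Hist1h2bk from -0.69 to 0.00057, positive without KLA replicate 1. None of these was called.

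Over all peaks, 488 were called in KLA against Veh, 305 with all tags as library size, 0 with DESeq2 under either set of size factors and 155 to 394 with a library left out. For RGFP966 + KLA against KLA the count was 33, against 53 with all tags, 87 with loess offsets, 0 with DESeq2, 57 with the 4 libraries of the comparison alone, 56 with the replicate block and 0 to 60 with a library left out. For RGFP966 + KLA against Veh it was 958, against 0 and 1 with DESeq2, 623 with the 16-tag filter and 319 to 1002 with a library left out. Of called peaks 65.6%, 69.7% and 69.7% were higher in the 3 comparisons. Loess offsets gave 56.3%, 26.4% and 50.2%, all tags gave 88.7% and 82.8% in the last 2, and TMM gave 59.5% in RGFP966 + KLA against KLA. All tags as library size moved the median of all peaks to 0.21 and 0.14 in the last 2. The cause of these differences was not tested.

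Replicate differences correlated little between conditions (0.015 to 0.032 over 7354 peaks), and the replicate block changed no call of a histone peak. With so few tags per peak, counting error keeps such correlations low, so pairing by replicate number could not be decided. With the block 558 and 1036 peaks were called in KLA against Veh and in RGFP966 + KLA against Veh. The median log2 difference of the WT members in KLA against Veh moved to -0.96 without KLA replicate 1. Shares of tags at histone peaks depend on the denominator by construction. With all tags they were 0.000459%, 0.000236%, 0.000243% and 0.00260% for Veh, KLA, RGFP966 + KLA and NWT Veh. With tags in promoter peaks they were 0.0465%, 0.0265%, 0.0244% and 0.180%, and over peaks that the tables share 0.0171%, 0.0129%, 0.00967% and 0.0133%. With a library left out they were 0.0248% to 0.0289%, 0.0146% to 0.0150%, 0.0114% to 0.0154% and 0.0994% to 0.104%.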

Other observations

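Beyond the 2000 bp window, 1 WT peak and 3 NCoR f/f peaks had a replication-dependent histone gene as their nearest gene. The WT peak lay 8426 bp from the TSS of Hist2h2bb.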
